A study of Homo sapiens with 6 samples.

Results

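The 45 genes described here encode integrin subunits, laminin chains and collagen chains. They were taken by symbol (ITGA and ITGB with a number or V, LAMA, LAMB and LAMC, and COL genes) from the 60623 gene IDs of the deposited count table, where 77 genes carried such a symbol and 45 of these had at least 60 counts summed over the 6 libraries. Of the 45, 14 were integrins, 10 laminins and 21 collagens, and 44 were abundant enough to be tested. The choice used the level summed over all libraries and not the difference between treatments. Just inside the limit were COL21A1 with 87 counts and ITGB8 with 78, and just outside it ITGA10 with 58 and ITGA11 with 56. ITGB8, the member that was not tested, had 0.561, 1.04 and 0.686 CPM with CCS1477 and 2.39, 1.97 and 0.737 CPM with DMSO.

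The cells were DU145, a human prostate cancer line whose genotype is given as wild type, and their poly-A RNA was sequenced. In 3 samples the cells had received 1 µM CCS1477 (inobrodib), a small molecule that blocks the bromodomains of p300 and CBP, both histone acetyltransferases, for 24 h, and in the other 3 the solvent DMSO. All were grown in RPMI-1640 medium with fetal bovine serum. Whether a group's samples came from different cultures is not stated, and p-values therefore reflect sample spread that may be technical alone.

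Integrins are cell surface receptors made of an alpha and a beta chain, and the alpha chain largely sets which matrix protein is bound. Laminins are trimers of an alpha, a beta and a gamma chain and form the sheet of the basement membrane on which epithelial cells sit, together with a network of type IV collagen. In epithelia the laminin that contains LAMA3 and LAMB3 is held by integrins of ITGA6 with ITGB4 and of ITGA3 with ITGB1, and COL17A1 is a transmembrane collagen of the same attachment plaque, the hemidesmosome. Normal prostate basal cells carry these plaques.

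Library totals ran from 8691382 to 9412867 counts with CCS1477 and from 8286880 to 11956734 with DMSO, and the detection floor of 3 counts was worth 0.256 to 0.368 CPM (counts scaled to the TMM-adjusted library size). The 45 genes took 0.659% to 0.673% of the counts with CCS1477 and 0.715% to 0.775% with DMSO. The epithelial label was borne out by KRT8, KRT18 and EPCAM, which averaged 728, 798 and 192 TPM (a transcript level per gene length, scaled to the same sum in each library) with CCS1477 and 712, 805 and 227 TPM with DMSO. KLK3 and KLK2, which mark androgen-responsive prostate cells, and the basal keratin KRT5 had 0 counts in every library. Of 7 fibroblast and stroma markers 3 had 0 counts (DCN, LUM and FAP), and the 7 summed to between 1.38 and 3.24 TPM with CCS1477 and between 1.03 and 1.94 TPM with DMSO. Of the 6 epithelial markers tested, 3 were lower with CCS1477 (CDH1, KRT7 and KRT19), and the list summed to between 2774 and 2940 TPM with CCS1477 and between 3068 and 3485 TPM with DMSO. Their part in the results below was not tested. In bulk RNA, fewer cells of a type and less RNA per cell cannot be told apart.

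Levels differed widely within each family. ITGB1, the beta chain shared by most matrix integrins, was the most abundant of the 45 genes, at 650.3 ± 25.7 TPM with CCS1477 and 798 ± 63.0 TPM with DMSO (SD, n = 3 each). Its partner ITGA3 followed at 324 ± 0.364 TPM with CCS1477 and 399.6 ± 45.7 TPM with DMSO. The most abundant laminin chains were LAMA5, LAMB3, LAMB2 and LAMC1, at 201, 198, 168 and 103 TPM averaged over the 6 libraries, and LAMA5 and LAMB3 did not differ from each other beyond their spread. Among the collagens COL6A1 and COL6A2, chains of the beaded filament collagen VI, led at 123 and 69.9 TPM, with COL18A1, a basement membrane collagen, at 51.8 TPM. The collagen VI chains COL6A3, COL6A5 and COL6A6 had 0 counts in every library. Fibrillar collagens of connective tissue were low: COL1A1 averaged 4.69 TPM with CCS1477 and 8.57 TPM with DMSO, its partner chain COL1A2 had 16 counts in all 6 libraries together, and COL3A1 was also below the limit of 60. In all, 17 members lay at 20 TPM or more, 8 from 5 to under 20 TPM and 20 under 5 TPM.

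**Figure D1:**
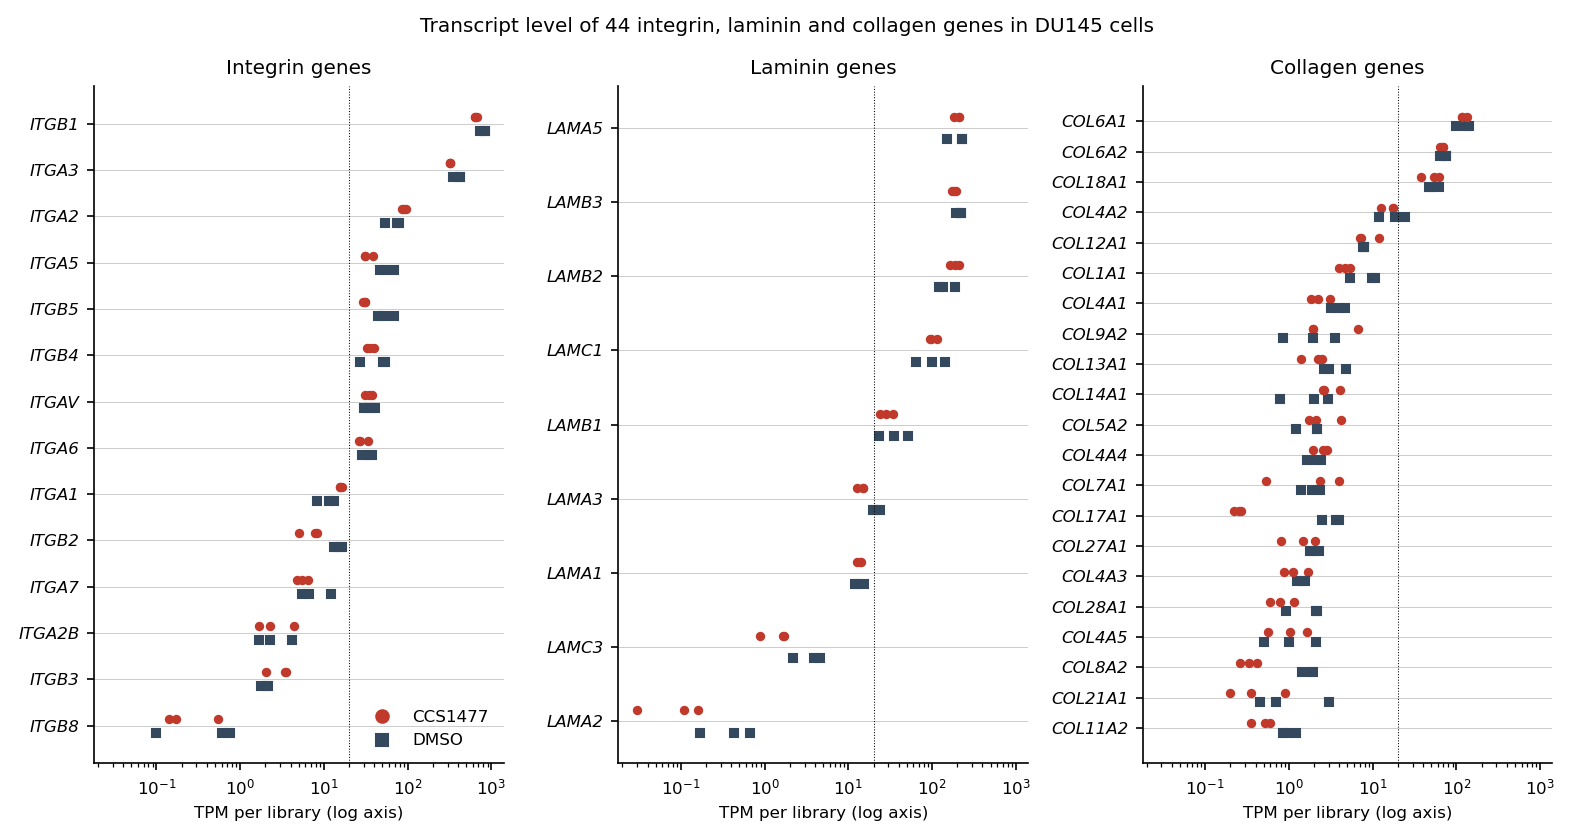
Level of 44 of the 45 genes in TPM per library on a log axis, with CCS1477 libraries as circles and DMSO libraries as squares and genes sorted by their mean within each family. The dotted line marks 20 TPM. ITGB1 and ITGA3 lie highest, and COL17A1 and COL8A2 stand out by the distance between their circles and squares.

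With CCS1477, 15 of the 44 tested genes were lower and 4 higher at an adjusted p under 0.05 (quasi-likelihood test of edgeR, Benjamini-Hochberg over all 14928 tested genes), and 25 did not pass. Lower by over 2-fold were 4 of the 44, against 3.07% of all genes, and 17.9% of all genes were called in either direction. Over all genes, 10.7% were lower and 7.23% higher, so the lower share among the members (34.1%) was above the background and the higher share (9.09%) was near it. The median log2 fold change was -0.24 over the 44 genes and 0.00 over all genes, and 32 members had a negative value. By family, 5 of 13 integrins, 4 of 10 laminins and 6 of 21 collagens were lower, and 2, 0 and 2 were higher. For the laminins, 0 were also higher at an unadjusted p under 0.05 in edgeR, in DESeq2 and in limma on TPM. The share of all genes at an unadjusted p was not taken, here or below. The 3 CCS1477 libraries all lay below the 3 DMSO libraries in 19 members, against 19.3% of all genes, and all above in 6, against 16.5% (35.9% in either direction). Members at 20 TPM or more had log2 fold changes from -0.75 to 0.35, and members under 5 TPM, whose standard errors were larger, from -3.19 to 0.86.

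**Figure D2:**
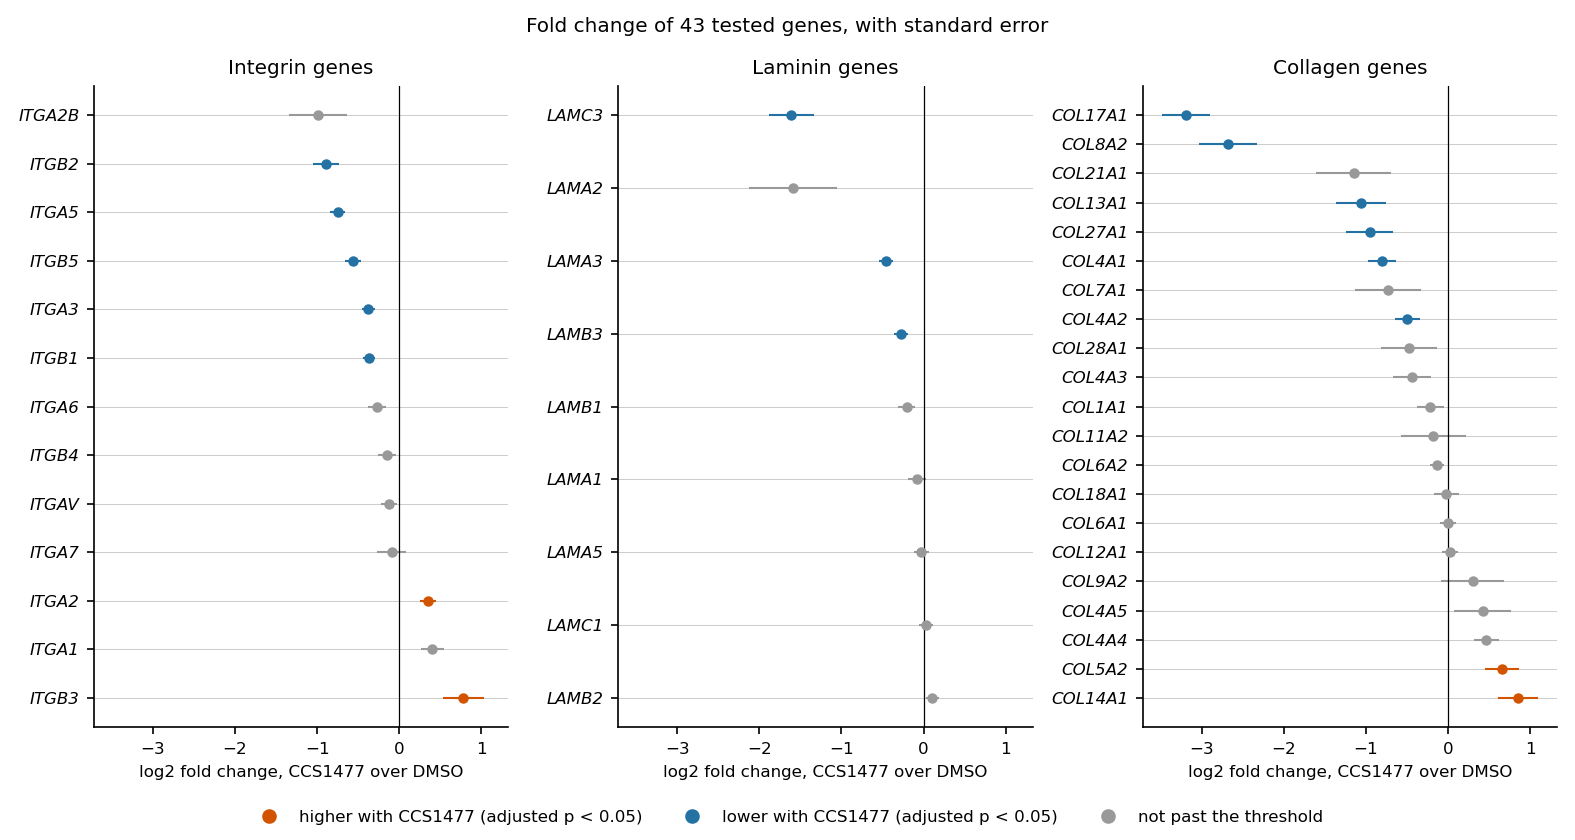
Log2 fold change (CCS1477 over DMSO) of 43 tested genes with its standard error, by family and sorted by value. Blue points are 14 lower genes, orange points the 4 higher genes and grey points the 25 that did not pass; the largest falls are COL17A1 and COL8A2.

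When any 1 library was left out, between 11 and 15 members were called lower, which held between 10 and 14 of the original 15. The members called higher numbered 0 without CCS1477 1, CCS1477 3 or DMSO 1, 2 without CCS1477 2 or DMSO 3, and 4 without DMSO 2. Over all genes, 7.59%, 6.08% and 6.76% were lower without CCS1477 1, 2 and 3, and 6.4%, 10.1% and 11.6% without DMSO 1, 2 and 3. The matching shares of higher genes were 4.75%, 3.21% and 3.16% without CCS1477 1, 2 and 3, and 3.65%, 7.18% and 8.55% without DMSO 1, 2 and 3. DESeq2 called 15 members lower and 3 higher, against 10.3% and 7.5% of all genes. On the log2(TPM + 1) scale limma called 6 members lower and 0 higher, against 2.86% and 1.96% of all genes, and at an unadjusted p under 0.05 it had 13 lower and 2 higher. With a pseudocount of 0.1 it called 6 and 0 again, against 2.75% and 1.88%, with 14 and 2 at an unadjusted p under 0.05. COL17A1, COL8A2, ITGA5, ITGB5 and ITGB2 were among these 6. With scaling by library totals alone, 13 members were lower and 6 higher, against 9.12% and 9.75% of all genes (1361 and 1456).

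**Figure D3:**
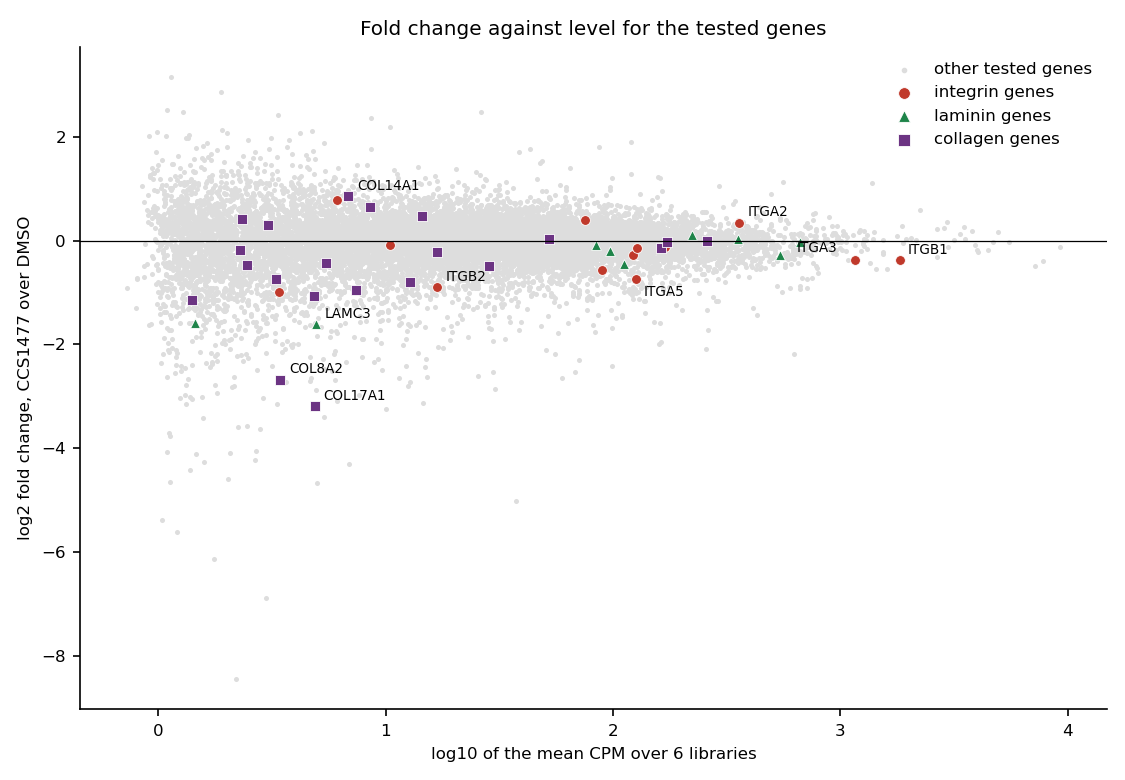
Log2 fold change (CCS1477 over DMSO) against the log10 of mean CPM for the tested genes in grey, with the integrin genes as circles, laminin genes as triangles and collagen genes as squares. Most members lie below 0, with the widest values at low CPM.

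LAMA3 and LAMB3, chains of the epithelial hemidesmosome laminin, were both lower with CCS1477. The alpha chain LAMA3 (chromosome 18, 23689443 to 23956222 as the files give it) had 94.8, 91.9 and 95.9 CPM with CCS1477 and 126, 136 and 125 CPM with DMSO. The beta chain LAMB3 (chromosome 1, 209614870 to 209652425) had 452, 495 and 528 CPM with CCS1477 and 610, 606 and 576 CPM with DMSO. The groups did not overlap for either chain, and the distance was wider for LAMA3 relative to its level. LAMA3 fell by 0.45 ± 0.08 on the log2 scale (SE, edgeR adjusted p = 0.00345) and LAMB3 by 0.28 ± 0.08 (edgeR adjusted p = 0.0405). Neither chain passed on the TPM scales, and among other settings LAMB3 did not pass with scaling by library totals or when any library other than DMSO 3 was left out. Per gene length, LAMB3 stood at 183 ± 9.73 TPM with CCS1477 and 213 ± 17.0 TPM with DMSO, above LAMA3 at 14.2 ± 1.29 TPM with CCS1477 and 21.3 ± 2.24 TPM with DMSO.

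Promoter windows of LAMA3 and LAMB3 are shown because both of these chains of the same trimer fell. Each runs from 250 bases before to 50 bases after the start that RefSeq gives (GRCh38.p14), 5′ to 3′ on the gene's strand, and LAMA3 has other starts as well. Capitals mark AP-1 matches (TGANTCA) and GC boxes (GGGCGG) on either strand; no TEAD match (GGAATG) is in them.
LAMA3, chr18:23872770-23873069, plus strand: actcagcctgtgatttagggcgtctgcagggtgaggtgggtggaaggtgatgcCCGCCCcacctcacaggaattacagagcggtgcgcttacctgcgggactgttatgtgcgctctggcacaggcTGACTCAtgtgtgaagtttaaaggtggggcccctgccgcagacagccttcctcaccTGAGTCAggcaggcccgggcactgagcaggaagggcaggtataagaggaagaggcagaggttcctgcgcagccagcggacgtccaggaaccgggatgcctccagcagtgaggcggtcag
LAMB3, chr1:209652376-209652675, minus strand: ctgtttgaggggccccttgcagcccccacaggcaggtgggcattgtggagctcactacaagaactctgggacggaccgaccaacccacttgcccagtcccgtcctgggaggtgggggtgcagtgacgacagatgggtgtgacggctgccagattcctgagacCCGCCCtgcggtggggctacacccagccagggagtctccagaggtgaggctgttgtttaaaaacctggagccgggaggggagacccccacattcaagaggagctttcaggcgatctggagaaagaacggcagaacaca
The LAMA3 window holds 2 AP-1 matches, starting 125 and 69 bases before the start, and 1 GC box, and the LAMB3 window holds 1 GC box.

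Other laminin chains split into an abundant group with little difference and a rare group with large ones. LAMA5, LAMB1, LAMB2 and LAMC1, which build the broadly expressed basement membrane laminins, stood at log2 fold changes of -0.03 ± 0.10, -0.21 ± 0.10, 0.11 ± 0.08 and 0.03 ± 0.09, none of them past the threshold (edgeR adjusted p = 0.889, 0.183, 0.416 and 0.859). LAMA5 for example averaged 656 ± 30.3 CPM with CCS1477 and 668 ± 80.3 CPM with DMSO, and its sign turned with scaling by library totals. The embryonic alpha chain LAMA1 had 82.1 ± 2.18 CPM with CCS1477 and 86.5 ± 12.2 CPM with DMSO (edgeR adjusted p = 0.677). The rare gamma chain LAMC3 was at 2.69, 2.29 and 2.40 CPM with CCS1477 and at 8.36, 8.89 and 5.16 CPM with DMSO. Every CCS1477 library of LAMC3 was below every DMSO library, and it fell by 1.61 ± 0.28 on the log2 scale (edgeR adjusted p = 0.00233), but did not pass on the TPM scales. LAMA2, an alpha chain of muscle and nerve basement membranes, had 7, 11 and 2 counts with CCS1477 and 36, 25 and 11 counts with DMSO, and its log2 fold change of -1.59 ± 0.54 did not pass (edgeR adjusted p = 0.0607).

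Integrin genes changed in both directions. ITGB1 had 1613, 1564 and 1590 CPM with CCS1477 and 2085, 2044 and 2038 CPM with DMSO. ITGA3, the laminin-binding alpha chain that pairs with it, had 989, 1013 and 1041 CPM with CCS1477 and 1387, 1337 and 1228 CPM with DMSO. Neither overlapped between groups, and the falls were of like size: 0.37 ± 0.07 on the log2 scale for ITGB1 (SE, edgeR adjusted p = 0.00392) and 0.38 ± 0.08 for ITGA3 (edgeR adjusted p = 0.00685). ITGA3 did not pass without DMSO 1 (edgeR adjusted p = 0.0544), and neither gene passed on the TPM scales. The chains of the hemidesmosome integrin did not pass: ITGA6 averaged 110 ± 14.5 CPM with CCS1477 and 133 ± 12.3 CPM with DMSO, and ITGB4 121 ± 8.45 CPM with CCS1477 and 134 ± 17.8 CPM with DMSO (edgeR adjusted p = 0.11 and 0.397). ITGA6 was called lower without CCS1477 1 or DMSO 3, at log2 fold changes of -0.38 and -0.35. ITGA7, a laminin-binding chain best known in muscle, had 10.1 ± 0.117 CPM with CCS1477 and 10.8 ± 1.48 CPM with DMSO (edgeR adjusted p = 0.762); its locus overlaps BLOC1S1 and METTL7B on the other strand, whose reads cannot be told apart without strand information.

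Of the integrins that bind the RGD motif of fibronectin and vitronectin, ITGA5 and ITGB5 fell while ITGAV did not pass. ITGA5, the alpha chain of the main fibronectin receptor (chromosome 12, 54395261 to 54419266), had 101, 91.6 and 89.2 CPM with CCS1477 and 167, 155 and 150 CPM with DMSO. ITGB5, a partner of ITGAV that binds vitronectin, had 74.3, 68.5 and 74.0 CPM with CCS1477 and 114, 112 and 93.4 CPM with DMSO. Both sets of libraries were apart, with ITGA5 lower by 0.75 ± 0.09 on the log2 scale (SE, edgeR adjusted p = 0.000200) and ITGB5 by 0.56 ± 0.10 (edgeR adjusted p = 0.00290). ITGAV, which pairs with ITGB1, ITGB3, ITGB5 and ITGB8, averaged 163 ± 11.5 CPM with CCS1477 and 178 ± 18.6 CPM with DMSO, and the groups overlapped (edgeR adjusted p = 0.414). ITGB3, another partner of ITGAV, went the other way, at 9.54, 5.62 and 8.0 CPM with CCS1477 and 4.60, 4.96 and 3.81 CPM with DMSO, and rose at a log2 fold change of 0.78 ± 0.25 (edgeR adjusted p = 0.0499). An unnamed gene on the same strand overlaps ITGB3, with 78 counts against 352 of ITGB3 over all libraries, and reads may be shared. The ITGB3 call sat at the threshold, and the settings that ended it included DESeq2, the TPM scales and leaving out CCS1477 1, CCS1477 3, DMSO 1 or DMSO 3. ITGA2B, the platelet partner of ITGB3, had 24, 23 and 15 counts with CCS1477 and 34, 73 and 36 counts with DMSO and did not pass (edgeR adjusted p = 0.0725).

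The ITGA5 window is shown as that of the integrin gene with the smallest adjusted p, with the same marking; its TEAD match is in capitals too.
ITGA5, chr12:54419217-54419516, minus strand: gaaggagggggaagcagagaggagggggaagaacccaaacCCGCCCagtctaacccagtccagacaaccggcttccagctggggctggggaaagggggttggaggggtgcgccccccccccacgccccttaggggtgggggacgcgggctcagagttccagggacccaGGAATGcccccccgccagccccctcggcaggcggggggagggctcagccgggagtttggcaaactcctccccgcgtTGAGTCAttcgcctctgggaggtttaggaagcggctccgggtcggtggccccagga
It holds 1 AP-1 match that starts 6 bases before the start, 1 TEAD match 82 bases before it and 1 GC box.

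Of the collagen-binding alpha chains, ITGA2 rose and ITGA1 did not pass. ITGA2, the collagen I receptor chain of epithelium and platelets, had 429, 390 and 387 CPM with CCS1477 and 323, 348 and 277 CPM with DMSO. ITGA1, the collagen IV receptor chain that lies next to it on chromosome 5, had 90.2, 84.5 and 83.8 CPM with CCS1477 and 65.3, 78.4 and 50.8 CPM with DMSO. All CCS1477 libraries were above all DMSO libraries in both genes, with DMSO 3 lowest. ITGA2 rose at a log2 fold change of 0.35 ± 0.10 (SE, edgeR adjusted p = 0.0299), and ITGA1 had 0.41 ± 0.14 and did not pass (edgeR adjusted p = 0.0593). On the TPM scales ITGA2 did not pass. Its call was also lost without any 1 CCS1477 library or DMSO 1, at edgeR adjusted p values from 0.0768 to 0.106. ITGA1 passed in DESeq2 and without DMSO 2. PELO overlaps ITGA1 on the same strand, so its reads may be shared. ITGB2, the beta chain of leukocyte integrins, had 9.31, 13.5 and 12.5 CPM with CCS1477 and 22.3, 22.5 and 20.9 CPM with DMSO and fell by 0.90 ± 0.16 on the log2 scale (edgeR adjusted p = 0.00289). Its antisense gene ITGB2-AS1 had 259 counts against 1017 of ITGB2 over all libraries, and reads of the 2 cannot be told apart where they overlap. Of 5 leukocyte markers, PTPRC and CD3E had 0 counts in every library, ITGAM, a partner chain of ITGB2, had 16 counts over all libraries and CD14 had 135. The list summed to between 1.99 and 3.26 TPM with CCS1477 and between 3.4 and 4.73 TPM with DMSO, and its part in the ITGB2 result was not tested.

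**Figure D4:**
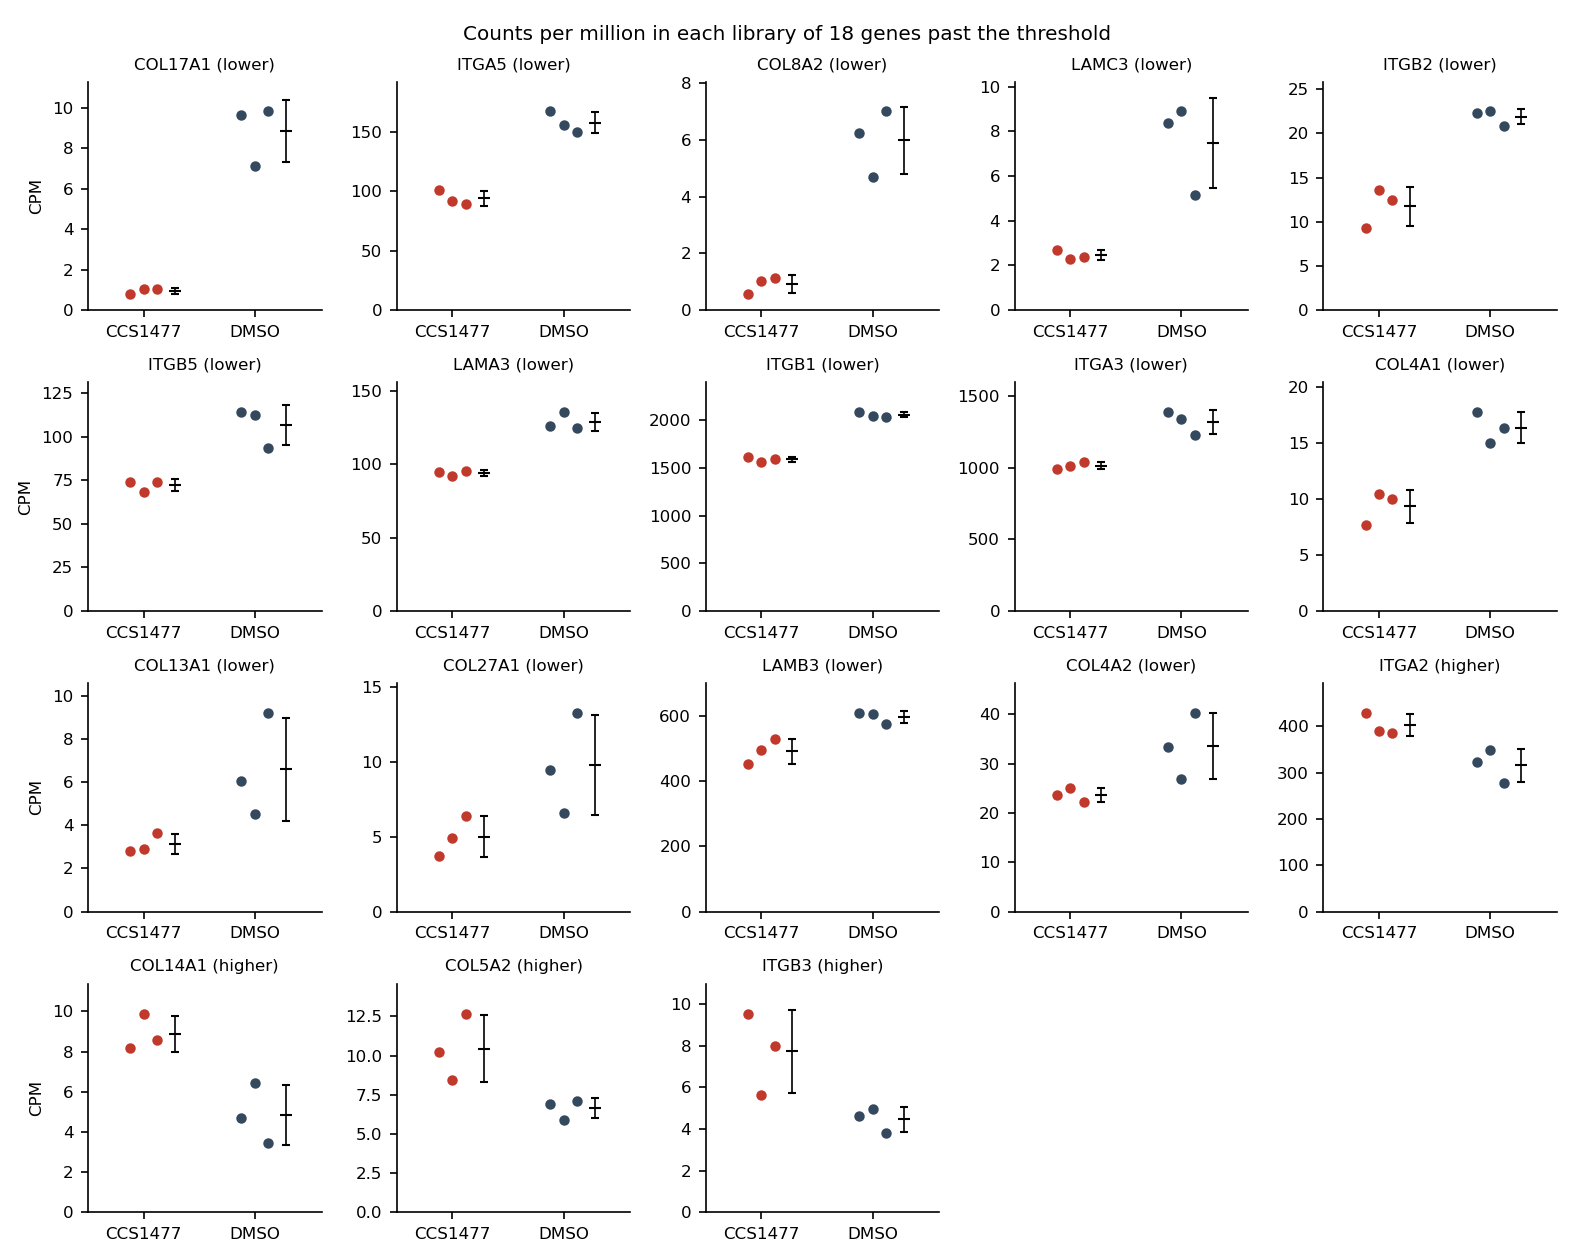
CPM in each library of 18 genes past the threshold, CCS1477 left and DMSO right in each panel, with the group mean and SD beside the points and each axis starting at 0. In none of the 18, chosen by the test on these same libraries, do the groups overlap, against 35.9% of all genes without overlap. The gap is wide for COL17A1, COL8A2 and ITGA5 and narrow for LAMB3, COL4A2, COL27A1, ITGB3 and COL5A2.

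Of the collagens, COL17A1 and COL8A2 had the lowest log2 fold changes. Lower were 2 of 2 transmembrane, 3 of 6 network-forming and 1 of 4 fibrillar chains, against 10.7% of all genes. Of the beaded filament, fibril-associated, anchoring fibril and multiplexin chains, 0 of 3, 0 of 4, 0 of 1 and 0 of 1 were lower. All these classes are small. COL17A1 (chromosome 10, 104031286 to 104085880), the hemidesmosome collagen, had 0.785, 1.04 and 1.03 CPM with CCS1477 and 9.63, 7.10 and 9.82 CPM with DMSO, from 7, 10 and 9 counts and 113, 83 and 80 counts. All CCS1477 libraries were far below the DMSO libraries, and the gene fell by 3.19 ± 0.29 on the log2 scale (SE, edgeR adjusted p = 2.75e-05), which is 9.15-fold. It ranked 26 from the lowest log2 fold change of 14928 tested genes. COL8A2 (chromosome 1, 36095239 to 36125222), a network-forming chain of the corneal endothelial basement membrane, had 0.561, 1.04 and 1.14 CPM with CCS1477 and 6.22, 4.70 and 7.00 CPM with DMSO and fell by 2.68 ± 0.35 (edgeR adjusted p = 0.000383). COL13A1, another transmembrane collagen, had 2.81, 2.92 and 3.66 CPM with CCS1477 and 6.05, 4.53 and 9.21 CPM with DMSO. It fell by 1.06 ± 0.30 (edgeR adjusted p = 0.0313), a call lost on the TPM scales and when any library other than DMSO 2 was left out. COL7A1, which forms the anchoring fibrils below the hemidesmosome, had 13, 29 and 25 counts with CCS1477 and 34, 37 and 52 counts with DMSO and did not pass (edgeR adjusted p = 0.237).

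The COL17A1 window is shown because this gene had the largest fall of the 44; it has none of the 3 motifs, and so no capitals.
COL17A1, chr10:104085831-104086130, minus strand: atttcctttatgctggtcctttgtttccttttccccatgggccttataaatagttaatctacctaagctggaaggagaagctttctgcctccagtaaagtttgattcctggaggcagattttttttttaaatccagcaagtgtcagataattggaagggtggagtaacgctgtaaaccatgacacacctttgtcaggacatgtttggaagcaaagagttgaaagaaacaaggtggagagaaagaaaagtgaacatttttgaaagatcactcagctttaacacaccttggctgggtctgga
Its GC content was 40.7%, against 82% in the COL8A2 window and a median of 58.3% over the 27305 windows of the table.

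The type IV collagen genes lie in head-to-head couples, and their members did not all move alike. COL4A1 had 7.63, 10.4 and 9.94 CPM with CCS1477 and 17.7, 15 and 16.3 CPM with DMSO. COL4A2, which joins it in the ubiquitous collagen IV trimer, had 23.7, 25.1 and 22.2 CPM with CCS1477 and 33.4, 26.9 and 40.3 CPM with DMSO. Both were lower in every CCS1477 library, by 0.81 ± 0.17 on the log2 scale for COL4A1 (SE, edgeR adjusted p = 0.00746) and 0.50 ± 0.15 for COL4A2 (edgeR adjusted p = 0.0414). Neither passed on the TPM scales, and among other settings COL4A2 did not pass with scaling by library totals or when any library other than DMSO 2 was left out. In the files the 2 genes overlap by 1345 bases on opposite strands, so their reads cannot be told apart there. COL4A3 and COL4A4, of the kidney and lung type network, start 112 bases apart. COL4A3 averaged 4.62 ± 0.813 CPM with CCS1477 and 6.29 ± 0.629 CPM with DMSO, and COL4A4 16.8 ± 2.25 CPM with CCS1477 and 12.1 ± 0.581 CPM with DMSO. The groups did not overlap in either, the signs were opposite (-0.44 ± 0.23 and 0.47 ± 0.16), and neither passed (edgeR adjusted p = 0.227 and 0.0585). COL4A5 had 18, 24 and 31 counts with CCS1477 and 24, 23 and 16 with DMSO (edgeR adjusted p = 0.439).

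The window of COL4A2 is shown for that couple. RefSeq places the starts of COL4A1 and COL4A2 127 bases apart, so 226 bases of their windows are the same DNA.
COL4A2, chr13:110307034-110307333, plus strand: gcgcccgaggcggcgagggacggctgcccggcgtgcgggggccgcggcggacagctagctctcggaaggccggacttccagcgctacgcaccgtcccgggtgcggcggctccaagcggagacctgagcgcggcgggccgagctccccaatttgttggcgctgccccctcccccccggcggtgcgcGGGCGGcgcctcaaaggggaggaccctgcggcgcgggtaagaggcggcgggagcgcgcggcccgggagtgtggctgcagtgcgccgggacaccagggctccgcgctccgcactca
It holds 1 GC box and neither an AP-1 nor a TEAD match.

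COL6A1, COL6A2 and COL18A1, the collagens at 20 TPM or more, did not pass, and neither did COL12A1 at 8.27 TPM. COL6A1 averaged 259 ± 26.0 CPM with CCS1477 and 258 ± 18.3 CPM with DMSO, and COL6A2 155 ± 9.81 CPM with CCS1477 and 171 ± 8.60 CPM with DMSO (edgeR adjusted p = 0.991 and 0.311). COL18A1 had 171 ± 29.3 CPM with CCS1477 and 174 ± 32.7 CPM with DMSO, and the fibril-associated COL12A1 52.9 ± 4.17 CPM with CCS1477 and 52.0 ± 0.972 CPM with DMSO (edgeR adjusted p = 0.946 and 0.906). For these 4 genes the SE of the log2 fold change was 0.10, 0.09, 0.15 and 0.10, and the groups overlapped. COL18A1 overlaps SLC19A1 on the other strand.

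Of the rarer fibrillar and fibril-associated collagens, COL5A2 and COL14A1 rose and COL27A1 fell, each with an adjusted p near the threshold. COL5A2, a chain of the collagen V that nucleates fibrils, had 10.2, 8.43 and 12.7 CPM with CCS1477 and 6.91, 5.90 and 7.12 CPM with DMSO and rose at a log2 fold change of 0.65 ± 0.21 (SE, edgeR adjusted p = 0.0471). COL14A1, a fibril-associated collagen, had 8.19, 9.89 and 8.57 CPM with CCS1477 and 4.69, 6.41 and 3.44 CPM with DMSO and rose at 0.86 ± 0.24 (edgeR adjusted p = 0.0305). COL27A1, a fibrillar collagen of cartilage, had 3.70, 4.89 and 6.40 CPM with CCS1477 and 9.46, 6.58 and 13.3 CPM with DMSO and fell by 0.95 ± 0.29 (edgeR adjusted p = 0.0388). The groups were apart in all of them, but leaving out 1 library ended the COL5A2 call unless it was CCS1477 2 or DMSO 3, the COL14A1 call unless it was DMSO 2, and the COL27A1 call unless it was CCS1477 3 or DMSO 2. On the TPM scales none of these 3 passed, and COL5A2 did not pass in DESeq2. COL1A1 had 152, 152 and 123 counts with CCS1477 and 171, 247 and 153 counts with DMSO (log2 fold change -0.21 ± 0.17, edgeR adjusted p = 0.420). COL9A2, COL11A2, COL21A1 and COL28A1, each under 5 TPM, stood at log2 fold changes of 0.30, -0.18, -1.15 and -0.48, none of them past the threshold (edgeR adjusted p = 0.643, 0.807, 0.106 and 0.373).

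**Figure D5:**
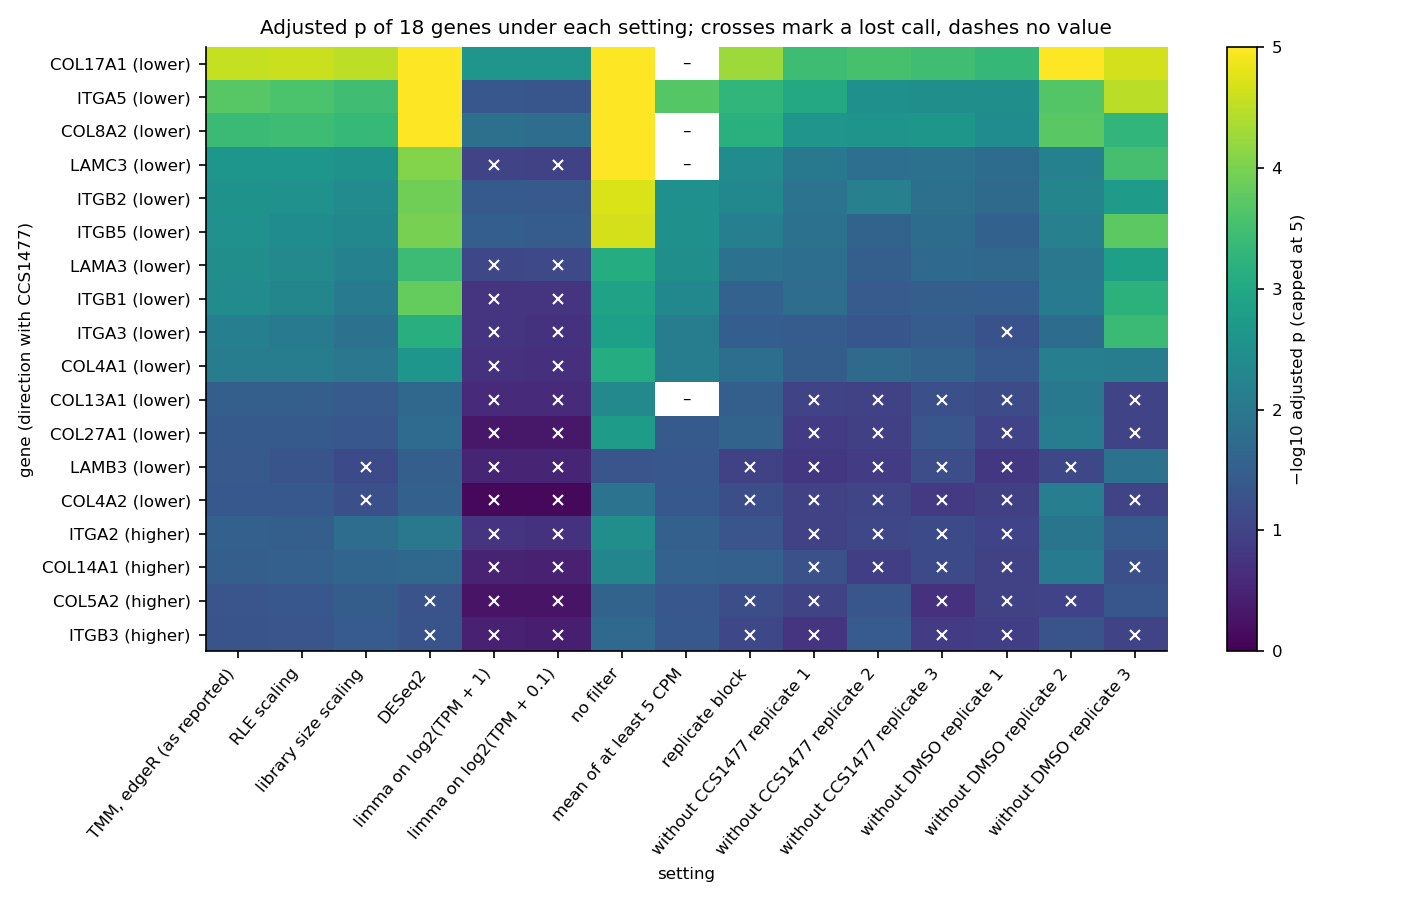
Adjusted p, as −log10 capped at 5, of 18 genes past the threshold (down the page) under the reported fit and 14 alternatives (across). White crosses mark settings where the call was lost and dashes settings without a value; COL17A1, COL8A2, ITGA5, ITGB2 and ITGB5 keep their call in every setting with a value, and the 4 higher genes lose it in several.

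Promoter windows were found for 33 of the 45 members, 11 of them lower, 1 higher, 20 that did not pass and 1 not tested. An AP-1 match was in 2 of the 33, LAMA3 and ITGA5, both lower, against 7.76% of all 27305 windows and 4.49% of the 10576 of tested genes. TEAD matches were in 4 (ITGA5 and ITGB1, both lower, with COL12A1 and LAMA2), against 14% and 10.7%. GC boxes were in 23 of the 33, in 9 of the 11 lower members and 12 of the 20 that did not pass, against 44.6% and 71.1%. The 1 window of a higher member, ITGA2, holds 4 GC boxes. A match describes these letters only.

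Some members lie near each other in the genome. ITGA3 and COL1A1 lie 92808 bases apart on chromosome 17, with log2 fold changes of -0.38 and -0.21, and COL6A1 and COL6A2 93047 bases apart on chromosome 21, at 0.00 and -0.14. ITGB2 lies 473176 bases from COL18A1 on chromosome 21, at -0.90 against -0.02.

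Genes that work with these families were read from the same fit in 3 lists. Of 31 tested genes of the integrin adhesion machinery, 9 (29%) were lower and 3 (9.68%) higher, against 10.7% and 7.23% of all genes, with a median log2 fold change of -0.14. TNS3, a tensin that ties beta chains to actin, had 20.9, 17.1 and 19.2 CPM with CCS1477 and 92.6, 89.1 and 65.1 CPM with DMSO, and fell by 2.11 ± 0.15 on the log2 scale (SE, edgeR adjusted p = 4.74e-06). TGFBI, a secreted integrin ligand, fell by 0.86 and the tetraspanin CD9 by 0.49. In the other direction PARVA, an adaptor of the ILK complex, had 31.6 ± 1.5 CPM with CCS1477 and 21.5 ± 2.34 CPM with DMSO, and CD151, the tetraspanin partner of laminin-binding integrins, 313 ± 24.7 CPM with CCS1477 and 230.5 ± 31.4 CPM with DMSO (log2 fold changes 0.55 and 0.44). The lower genes numbered 5 without DMSO 1, and the higher genes 0 without CCS1477 2 and 1 without CCS1477 3 or DMSO 1.

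Of 29 tested genes of collagen processing, 6 (20.7%) were lower and 3 (10.3%) higher, against 10.7% and 7.23% of all genes, so that the higher share was near the background, and the median log2 fold change was -0.15. The procollagen proteinase BMP1 had 40.1, 46.1 and 36.9 CPM with CCS1477 and 74.0, 71.2 and 71.5 CPM with DMSO and fell by 0.81 ± 0.11 on the log2 scale (SE, edgeR adjusted p = 0.000399). The cross-linking oxidases LOXL2 and LOX fell by 0.50 and 0.89. P3H1 and CRTAP, partners in the prolyl 3-hydroxylase complex, and the lysyl hydroxylase PLOD2 rose at log2 fold changes of 0.40, 0.29 and 0.29. The lower genes numbered 3 without DMSO 1 and 2 without CCS1477 3, and the higher ones 0 without DMSO 1 or CCS1477 3 and 1 without CCS1477 1. On the TPM scales limma called 0 in either direction, with 3 lower and 2 higher at an unadjusted p under 0.05, where the share of all genes was not taken.

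Of 19 tested basement membrane partners and other laminin or collagen receptors, 7 (36.8%) were lower and 0 higher, against 10.7% and 7.23% of all genes, with a median log2 fold change of -0.24. At an unadjusted p under 0.05 edgeR had 0 higher and 9 lower, DESeq2 0 and 8, and limma on either TPM scale 0 and 6. Without the share of all genes at that level, these counts cannot be set against the background. BCAM, a laminin receptor that binds LAMA5, had 77.5, 73.5 and 86.0 CPM with CCS1477 and 172, 145 and 158 CPM with DMSO and fell by 1.00 ± 0.10 on the log2 scale (SE, edgeR adjusted p = 4.88e-05). LAD1, an anchoring filament protein of the basement membrane zone, had 4.71, 4.89 and 6.17 CPM with CCS1477 and 12.3, 14.1 and 14.7 CPM with DMSO and fell by 1.38. The collagen receptor kinase DDR1 fell by 0.585 and the hyaluronan and collagen receptor CD44 by 0.69. No CCS1477 library of these 4 genes, chosen by the test on these same libraries, reached a DMSO library. Over all genes this held for 19.3%.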

How the data were processed

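Poly-A RNA of 6 DU145 samples was measured, 3 with CCS1477 and 3 with DMSO, grouped by the sample titles. The authors deposited a table of estimated counts per gene, not normalized, and a table of TPM with equal sums per library; between 10.2% and 10.7% of a library's nonzero estimated counts were not whole. The submitters' processing notes name Trimmomatic 0.39. For aligner, counting tool, genome build and strand setting, the sources used here give nothing.

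Estimated counts were rounded and filtered with filterByExpr (minimum count 10, minimum total 15), which left 14928 of 25155 genes with a count. TMM scaling and edgeR's quasi-likelihood test compared CCS1477 with DMSO without covariates, at an adjusted p of 0.05 (Benjamini-Hochberg over all tested genes). CPM uses TMM-scaled totals, and SE is the log2 fold change over the root of F. A fold change on the log2(TPM + 1) scale understates that of low genes. Software was R 4.3.3, edgeR 4.0.16, limma 3.58.1, DESeq2 1.42.0 and matplotlib 3.10.9. On simulated data for this comparison (14928 genes, 200 changed) edgeR recovered 42.2% of 1.5-fold and 80.7% of 2-fold changes, with 5.24% and 4.16% false calls. The simulated spread depended on a gene's level alone, and 2676 genes were called in the data, so the rates may differ there.

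Members, gene lists, marker lists and motifs were chosen with earlier results of these data known. Named in full are members past the threshold, members at 20 TPM or more and their partner chains; from each list, up to 4 genes with the smallest adjusted p and up to 2 of opposite sign. Of 34, 32 and 23 list symbols, 33, 31 and 23 were in the table. Alternatives were other scaling, DESeq2, limma on TPM with pseudocounts 1 and 0.1, changed filters, a replicate block and leaving out each library. Some genes are counted in the totals but not reported here by name or drawn. Promoter sequences are RefSeq's. Floors cover counting error only. Without strand information, reads of overlapping genes cannot be told apart, which also touches ITGB1 (ITGB1-DT), ITGB4 (GALK1), LAMA5 (ADRM1) and LAMB1 (DLD).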

Additional observations from a re-analysis of the deposited data

How the results depend on the processing

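Under 14 alternatives, 60 genes gave 828 log2 fold changes, of which 677 kept direction and side of the threshold, 111 lost the call, 13 gained one and 27 changed sign, 0 of these past the threshold. Of the 19 called members, 6 kept the call wherever they had a value, and 4 lost it on the TPM scales alone. The limma fits on log2(TPM + 1) and log2(TPM + 0.1) gave 0 and 0 members higher, 6 and 6 lower, 293 and 280 genes higher, 427 and 410 lower, 1 and 1 adhesion machinery genes higher, 3 and 2 lower, 0 and 0 collagen processing genes higher, 0 and 0 lower, and 2 and 2 basement membrane partners lower. The cause was not tested.

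Leaving out 1 library gave 0 to 4 members higher and 11 to 15 lower, 487 to 1311 genes higher and 925 to 1772 lower, 0 to 3 adhesion machinery genes higher and 5 to 10 lower, 0 to 3 collagen processing genes higher and 2 to 7 lower, and 6 to 8 basement membrane partners lower. Deviations from the group mean correlated at -0.09, -0.22 and 0.02 between libraries of the same number 1, 2 and 3. Libraries of unlike number ran from -0.23 to 0.32. With 3 libraries a group, these values cannot show whether the replicate numbers pair the samples, and the sample titles do not say. With a replicate block, 3 members were higher and 13 lower, and 1 collagen processing gene was higher; LAMB3, COL4A2, COL5A2 and ITGB3 were not past the threshold in that fit.

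Sign changes concern log2 fold changes. Signs turned on log2(TPM + 1) for ITGA2B at 0.0311, LAMA1 at 0.0397, LAMA5 at 0.0227, COL4A5 at -0.0554, COL6A1 at -0.0077 and COL7A1 at 0.0387. Signs turned on log2(TPM + 0.1) for ITGA2B at 0.0402, LAMA1 at 0.0428, LAMA5 at 0.0229, COL4A5 at -0.0629 and COL6A1 at -0.0077. Signs turned with scaling by library totals for LAMA5 at 0.0216 and COL18A1 at 0.0263. Signs turned in the replicate block for COL6A1 at -6e-04. Leaving out 1 library, log2 fold changes ran for LAMA1 from -0.15 to 0.055, LAMA5 from -0.12 to 0.0607, LAMC1 from -0.0446 to 0.0943, COL6A1 from -0.0609 to 0.0857, COL11A2 from -0.40 to 0.0982, COL12A1 from -0.0258 to 0.0902 and COL18A1 from -0.16 to 0.12. At 3 counts the floor was 0.256 to 0.368 CPM, which limits the members under 5 TPM most.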

Other observations

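The ratio of CCS1477 to DMSO differed by over 1.5-fold between TPM and CPM in 5 members, all of them past no threshold in the count test. COL7A1 was at 0.53, 2.35 and 3.98 TPM with CCS1477 and 1.90, 1.41 and 2.37 TPM with DMSO, while its counts gave 2.45 ± 0.858 CPM with CCS1477 and 4.15 ± 1.94 CPM with DMSO. ITGA2B was at 2.78 ± 1.41 TPM with CCS1477 and 2.68 ± 1.30 TPM with DMSO, against 2.27 ± 0.502 CPM with CCS1477 and 4.52 ± 1.67 CPM with DMSO. COL1A1 was at 5.40, 4.71 and 3.95 TPM with CCS1477 and 5.37, 9.69 and 10.7 TPM with DMSO, and COL11A2 at 0.487 ± 0.123 TPM with CCS1477 and 1.02 ± 0.191 TPM with DMSO. COL4A5 was the fifth, at a 1.51-fold gap between the ratios.

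Of the 17 members at 20 TPM or more, DMSO 3 was the lowest DMSO library in 15 by CPM and in 16 by TPM, and the lowest CCS1477 library was CCS1477 1, CCS1477 2 and CCS1477 3 in 6, 6 and 5 of them by CPM. LAMC1 was at 65.2 TPM in DMSO 3, against 143 TPM in DMSO 2, while its CPM in these libraries was 316 and 377. In the fit without DMSO 3, LAMB1 was called lower at a log2 fold change of -0.29.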
